A study of Mus musculus with 2 samples.

Results

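Striated muscle carries a small group of miRNA genes, often called myomiRs, that other tissues express weakly or not at all. They comprise the miR-1, miR-133 and miR-206 families, whose genes lie in pairs, and miR-208a, miR-208b and miR-499, which sit inside introns of myosin heavy chain genes. Their levels were read in the stomachs of newborn mice, an organ whose own muscle coat is smooth. The group was chosen by gene symbol and has 9 members: Mir206, Mir133b, Mir208b, Mir208a, Mir499, Mir1a-1, Mir1a-2, Mir133a-1 and Mir133a-2. Of these, 8 were found among the 1973 miRNA genes in the count tables, by their Ensembl identifiers in the GENCODE mouse annotation, and Mir1a-2 was not analysed here.

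The study sequenced the RNA below 30 nucleotides from whole stomach of B6NCrl mice at postnatal day 0. There is 1 group with 2 libraries, the stomachs of pup 1 and pup 2, both born to 1 dam. The labels record no sex for them. No genetic change or treatment is given in the labels. The design therefore shows what these 2 libraries of newborn stomach hold and how far they differ, and compares no conditions. Each pup gave 1 library, so differences between pups and between library preparations cannot be told apart. Own-strand reads of miRNA genes summed to 4463355 in pup 1 and 3454655 in pup 2, and levels are counts per 1000000 of these (CPM). A count of 0 allows up to 0.672 CPM in pup 1 and 0.868 CPM in pup 2 (3 counts). Intervals are exact 95% intervals, and like this floor they cover counting error only, since amplified reads that carry no molecular identifier are not separate molecules. Of 8 genes used as markers of stomach epithelium, 8 had at least 10 counts in each library. Together they held 12.7% of own-strand counts in pup 1 and 13.1% in pup 2. Their presence does not verify the tissue label, since no other tissue was compared.

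The miRNAs that the results turn on are shown first, each 5′ to 3′ with its seed (bases 2 to 8, the part that pairs with target mRNAs) in capitals. They are given for the 5 members whose mature sequences stand whole in no other annotated hairpin.
mmu-miR-206-3p: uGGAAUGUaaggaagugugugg
mmu-miR-133b-3p: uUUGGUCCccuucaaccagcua
mmu-miR-208b-3p: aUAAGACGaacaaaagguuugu
mmu-miR-208a-3p: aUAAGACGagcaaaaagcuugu
mmu-miR-499-5p: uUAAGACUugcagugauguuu
The sequences are those of RefSeq on GRCm38.p6, which held mature sequences for 6 of the 9 members. The arms lie at chr1:20679055-20679076 (miR-206-3p, plus strand), chr1:20682834-20682855 (miR-133b-3p, plus strand), chr14:54975710-54975731 (miR-208b-3p, minus strand), chr14:54949072-54949093 (miR-208a-3p, minus strand) and chr2:155622893-155622913 (miR-499-5p, plus strand). The tables count reads per gene, so the arms of a hairpin were not told apart.

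These sequences fall into families by seed. miR-208a-3p and miR-208b-3p share their whole seed and 19 of 22 bases. Written with the miR-208a base first and positions counted from 1 at the 5′ end, they differ by G10A, A16G and C18U. The seed of miR-499-5p matches that of miR-208b-3p at 6 of its 7 positions. The seed of miR-206-3p also stands in both miR-1a hairpins, Mir1a-1 and Mir1a-2, but the Mir206 hairpin has at most 13 consecutive bases in common with either. Of the 22 bases of miR-133b-3p, the first 21 stand in the hairpins of both Mir133a-1 and Mir133a-2, so that its last base alone sets it apart.

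The members differ in how far their sequences are shared. Mir206, Mir208b, Mir208a and Mir499 have no stretch of 20 bases in common with any other annotated hairpin, and their longest are 13, 11, 12 and 12 bases. Mir1a-1 and Mir1a-2 share a stretch of 28 bases, longer than a mature miRNA, and Mir133a-1 and Mir133a-2 share one of 31. A read lying inside such a stretch fits both genes. Reads that mapped to several places were kept out of the gene counts, and they numbered 1873722 in pup 1 and 1425289 in pup 2. That is 2299 such reads in pup 1 and 1106 in pup 2 for every read counted for the 8 genes together. How many of them came from miR-1a or miR-133a was not tested.

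**Figure D1:**
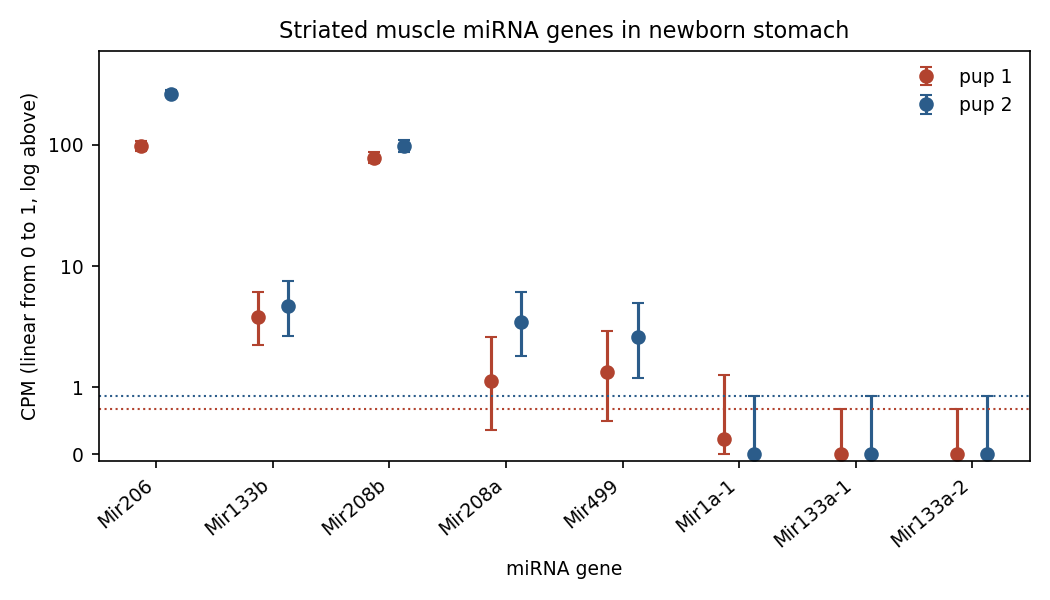
Level of each of the 8 analysed genes in pup 1 and pup 2, in CPM on an axis that is linear from 0 to 1 and logarithmic above. Bars are exact 95% intervals from counting (for a count of 0, up to 3 counts), and dotted lines mark the level of 3 counts in each pup. Mir206 and Mir208b stand far above the rest in uniquely placed reads. Mir206 has the widest gap between pups beyond its intervals, 97.5 CPM in pup 1 and 265 CPM in pup 2.

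Mir206, whose miRNA is known from skeletal muscle, had the most uniquely placed reads of the group in both pups. It had 435 counts in pup 1 and 914 in pup 2, or 97.5 CPM (88.5 to 107) in pup 1 and 265 CPM (248 to 282) in pup 2. The intervals lie apart, with pup 2 the higher. The mean was 181 ± 118 CPM (SD, n = 2), which placed Mir206 at rank 147 of all genes, near the median of 166 CPM for the 305 genes that reached 10 counts or more in both libraries (called detected here). The gene, ENSMUSG00000065559.1, occupies 20679010 to 20679082 of chromosome 1 (GRCm38, plus strand), over an exon of the long noncoding RNA Gm28653. Its hairpin is shown with both mature arms in capitals, because this is the sequence whose counts separated the pups.
Mir206: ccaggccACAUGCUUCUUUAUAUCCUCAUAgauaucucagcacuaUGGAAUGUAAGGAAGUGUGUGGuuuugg

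Mir133b shares that locus and is read far less often. Its hairpin starts 3686 bases beyond the end of Mir206, at 20682769 to 20682887 on the same strand, also over an exon of Gm28653, and miR-133 is known in muscle for regulating myoblast proliferation. Mir133b had 17 counts in pup 1 and 16 in pup 2, 3.81 CPM (2.22 to 6.10) in pup 1 and 4.63 CPM (2.65 to 7.52) in pup 2. These intervals overlap widely. Mir206 exceeded Mir133b 25.6-fold in pup 1 (15.8 to 44.3) and 57.1-fold in pup 2 (35.0 to 100.4). Because 21 of the 22 bases of miR-133b-3p are shared, the count of Mir133b can be too low and these ratios too high, which their intervals do not cover.

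Mir208b was the second gene of the group with substantial counts, and its raw counts were alike in 2 libraries of unlike depth. It lies in an intron of Myh7, the slow or beta myosin heavy chain gene of heart and slow skeletal fibres, on chromosome 14 at 54975700 to 54975776, minus strand. It had 351 counts in pup 1 and 338 in pup 2, equal to 78.6 CPM (70.6 to 87.3) in pup 1 and 97.8 CPM (87.7 to 109) in pup 2. Those intervals lie just apart when scaled by total counts. The mean of 88.2 ± 13.6 CPM (SD, n = 2) gave it rank 180, with 125 of the 305 detected genes below it. Its hairpin, given because it carried the second of the measurable signals, has the mature arms in capitals.
Mir208b: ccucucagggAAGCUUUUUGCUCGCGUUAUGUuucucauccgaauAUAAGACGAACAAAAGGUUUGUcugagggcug

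The remaining myosin miRNA genes stayed under 10 counts in at least 1 pup. Mir208a lies in an intron of Myh6, the alpha myosin heavy chain gene of the heart, on chromosome 14 at 54949060 to 54949142, with 26557 bases between its hairpin and that of Mir208b. It had 5 counts in pup 1 and 12 in pup 2, 1.12 CPM (0.364 to 2.61) in pup 1 and 3.47 CPM (1.79 to 6.07) in pup 2. Mir499 lies in an intron of Myh7b, a further slow myosin heavy chain gene, on chromosome 2 at 155622880 to 155622958. It had 6 counts in pup 1 and 9 in pup 2, 1.34 CPM (0.493 to 2.93) in pup 1 and 2.61 CPM (1.19 to 4.95) in pup 2. For both genes the intervals of the pups overlap, so a difference was not detectable at this depth.

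The miR-1a and miR-133a genes, whose miRNAs are the most typical of heart and skeletal muscle, left almost no uniquely placed read. Mir1a-1, on chromosome 2 at 180389048 to 180389124, had 1 count in pup 1 and 0 in pup 2. Mir133a-2, at 180398379 to 180398482 on the same chromosome, and Mir133a-1, on chromosome 18 in an intron of Mir133a-1hg, each had 0 counts in both pups. The limit of 0.672 CPM in pup 1 and 0.868 CPM in pup 2 applies to reads placed on 1 gene only, and says nothing of the level of miR-1a or miR-133a. The usual defining markers of striated muscle therefore could not be checked here, and the group's label rests on Mir206, Mir208b and counts of up to 17 for Mir133b, Mir208a and Mir499. None of the 8 genes had a read on the opposite strand.

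In order of mean level in uniquely placed reads the genes ran Mir206, Mir208b, Mir133b, Mir208a, Mir499 and Mir1a-1. The place of Mir1a-1 says nothing of the level of miR-1a, and that of Mir133b can be too low. The mature miRNAs are all 21 to 23 bases long and a read covers a mature molecule, so counts were not divided by hairpin length. Mir206 exceeded Mir208b 1.24-fold in pup 1 (1.07 to 1.43) and 2.70-fold in pup 2 (2.38 to 3.07), a mean log2 ratio of 0.87 ± 0.80 (SD, n = 2). These ratios are taken within a library and do not depend on how libraries are scaled. Whether different miRNA sequences enter a library equally well was not tested, and intervals of ratios between genes do not cover it. Mir133b and Mir208a had overlapping intervals in each pup. By value Mir499 was higher than Mir208a in pup 1 and lower in pup 2, but their intervals overlap in each pup, so neither order is settled.

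Within the myosin set, the gene in Myh7 led in counts by a wide margin. Mir208b exceeded Mir208a 70.2-fold in pup 1 (29.8 to 218) and 28.2-fold in pup 2 (15.9 to 55.1), and the intervals overlap between pups. It exceeded Mir499 58.5-fold in pup 1 (26.6 to 160) and 37.6-fold in pup 2 (19.5 to 82.8). Every one of these intervals lies above 15-fold. No member of this set shares a long stretch with another hairpin, so reads lost to several places are less of a limit here than for Mir133b.

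**Figure D2:**
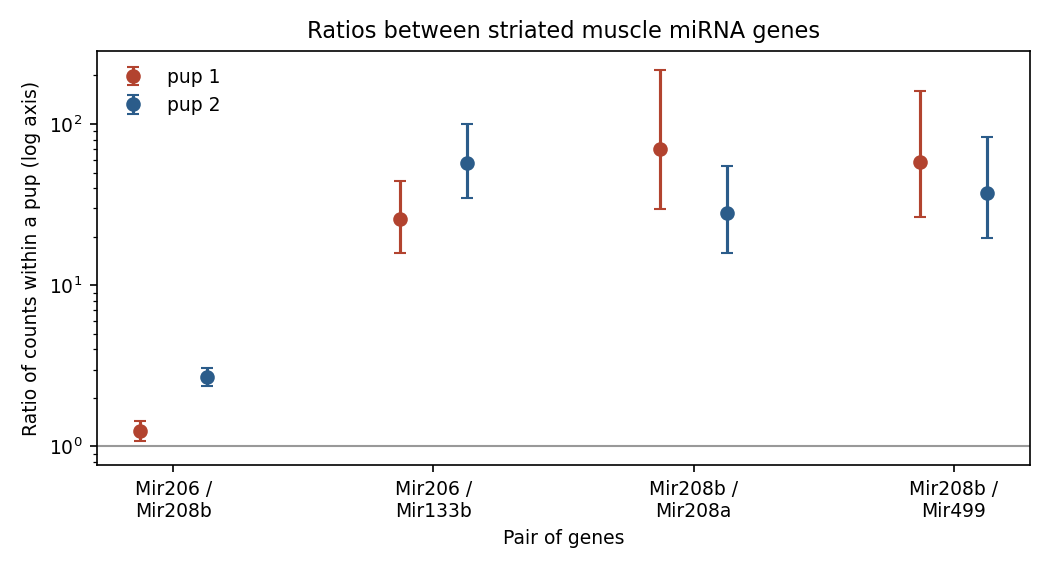
Ratio of counts between pairs of genes within each pup, on a log axis with a line at equal counts; bars are exact 95% intervals. Mir206 over Mir208b is the pair whose intervals do not overlap between the pups, 1.07 to 1.43 in pup 1 and 2.38 to 3.07 in pup 2.

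Together the 8 genes had 815 counts in pup 1 and 1289 in pup 2, from uniquely placed reads only. Any reads of miR-1a or miR-133a that mapped to several places are missing from the shares that follow, and Mir1a-2 was not analysed. The 8 genes held 0.0183% of own-strand counts in pup 1 (0.0170% to 0.0196%) and 0.0373% in pup 2 (0.0353% to 0.0394%). The mean was 0.0278% ± 0.0135 (SD, n = 2). Mir206 made up 53.4% of the group in pup 1 and 70.9% in pup 2, while Mir208b made up 43.1% in pup 1 and 26.2% in pup 2. With Mir206 left out, a choice made after its values were known, the group held 0.00968% ± 0.00166. For scale, the smooth muscle genes Mir143 and Mir145a held 25.6% in pup 1 and 23.9% in pup 2. How far the missing reads would narrow this gap was not tested. In whole tissue, fewer cells of a type and less RNA per cell cannot be told apart.

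**Figure D3:**
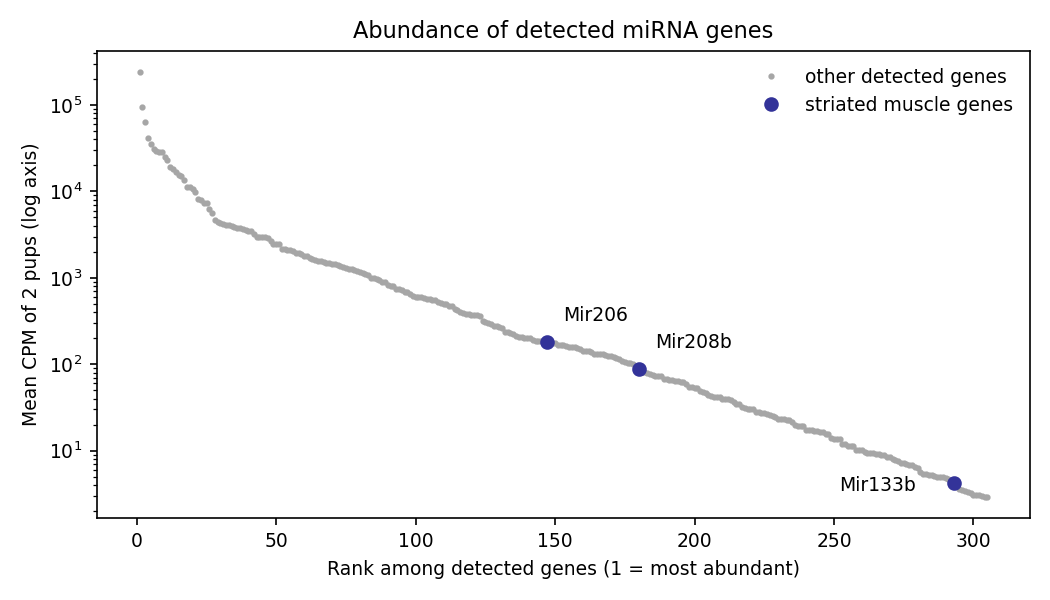
Mean CPM of the 305 detected genes on a log axis, ordered from the most abundant, with the 3 detected striated muscle genes marked. Mir206 at 181 CPM and Mir208b at 88.2 CPM lie in the middle of the curve, and Mir133b at 4.22 CPM lies near its end with 12 detected genes below it.

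The littermates were compared gene by gene over all 305 detected genes, and Mir206 was the 1 striated muscle gene called. Calls needed a ratio of at least 1.5 and, in a two-sided exact binomial test, a p under 0.05 after Benjamini-Hochberg adjustment over all detected genes. Under this rule 2.95% of detected genes were called, 2 of them higher in pup 1 and 7, or 2.3% of detected genes, higher in pup 2. Without the ratio minimum 52.1% passed, and Mir206 was the 1 member among them under TMM scaling. Scaled by total counts, Mir208b would pass as well (adjusted p = 0.011, exact binomial test). With 3 members detected, 1 call is too few to be read as a share, and the members were chosen with this difference known. The split depends on scaling: by total counts 1 was higher in pup 1 and 15 in pup 2, and with DESeq2 size factors 4 were higher in pup 1 and 6 in pup 2. The test compares these libraries, not conditions, and a permutation test over 2 libraries cannot reach a p below 0.5.

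Mir206 was lower in pup 1, with a log2 ratio of pup 1 over pup 2 of -1.34 (-1.51 to -1.17; adjusted p = 3.7e-60, exact binomial test). This is 2.53-fold in favour of pup 2 and rank 2 by size among the 305 genes. Mir208b had a log2 ratio of -0.21 (-0.43 to 0.01; adjusted p = 0.099, exact binomial test) and Mir133b one of -0.18 (-1.25 to 0.90; adjusted p = 0.83, exact binomial test). Neither was called, and the interval of Mir133b is wide enough to hold a difference as large as 2-fold. Below the detection minimum, Mir208a had a log2 ratio of -1.53 (-3.39 to 0.08) and Mir499 one of -0.85 (-2.62 to 0.80). All 5 values were negative, but the intervals of 4 of the 5 include 0. Among all 305 detected genes 160 had a negative value, so the shared sign of so few genes is not read as a result.

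The interval of the log2 ratio of Mir206, -1.51 to -1.17, does not meet that of Mir208b, -0.43 to 0.01. Both cover counting error in 1 library per pup and not the variation among pups, so this describes these libraries. The intervals of Mir133b, Mir208a and Mir499 all overlap that of Mir206, so whether Mir133b moved with its neighbour was not detectable at this depth. Over all detected genes the median log2 ratio was -0.02 and the median absolute one 0.17. Scaling by total counts in place of TMM lowers every log2 ratio by 0.10 (a shift of -0.10), which gives -1.44 for Mir206 and -0.32 for Mir208b.

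**Figure D4:**
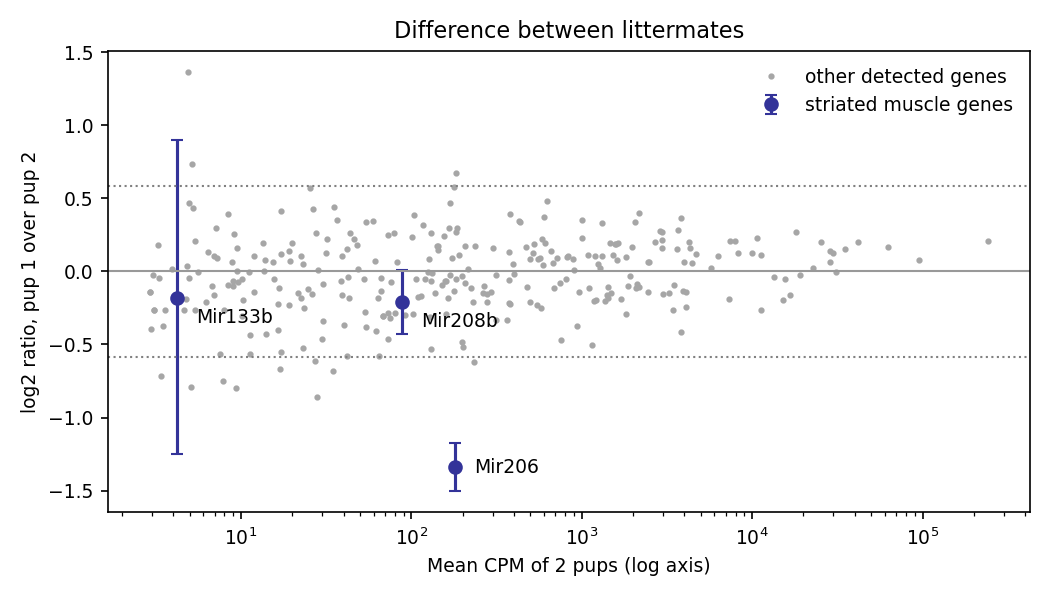
Log2 ratio of pup 1 over pup 2 against mean CPM (log axis) for the 305 detected genes, with exact 95% intervals for the 3 striated muscle genes; dotted lines mark a ratio of 1.5. Mir206 lies at -1.34, below the other genes of similar abundance, while Mir208b (-0.21) and Mir133b (-0.18) lie within the cloud.

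Outside the group, the gene with the log2 ratio nearest to that of Mir206 was Mir877 at -0.86 (-1.28 to -0.45), with 84 counts in pup 1 and 127 in pup 2. Mir196b followed at -0.80 (-1.54 to -0.08), with 29 counts in pup 1 and 42 in pup 2, and Mir670 at -0.79 (-1.81 to 0.19), with 16 in pup 1 and 23 in pup 2. The gap from Mir206 to Mir877 was 0.47 on the log2 scale, but all 3 intervals overlap that of Mir206. Mir208b had close neighbours, in Mir122 (-0.21), Mir152 (-0.21) and Mir1298 (-0.21). This likeness is measured over 2 libraries and describes those only.

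Summed over the 8 striated muscle genes, the log2 ratio of pup 1 over pup 2 was -0.93. Mir206, chosen with its difference known, made up most of these counts. That this ratio exceeds those of other tissue markers was therefore fixed in advance and is not a result. The other 2 detected members had smaller ratios, -0.21 for Mir208b and -0.18 for Mir133b. The log2 ratio of pup 1 over pup 2 for the summed counts was 0.20 for smooth muscle (2 of 2 genes detected, led by Mir143), 0.06 for stomach epithelium (8 of 8, led by Mir203) and 0.15 for the endothelial gene Mir126a. It was -0.21 for the hepatocyte gene Mir122, which had 916 counts in pup 1 against 881 in pup 2. The erythroid genes Mir451a and Mir144 (2 of 2 detected) gave 0.29, with 177 counts in pup 1 and 120 in pup 2. Neural genes gave -0.19, through Mir137, with 1 of 6 analysed genes detected and 4 of the 6 at 0 in both pups. These are uniquely placed reads only, and whether the genes of these lists share mature sequences was not tested. A low count or a 0 therefore says nothing of the level of a miRNA that several genes encode. The pancreatic acinar genes had 12 counts in pup 1 and 9 in pup 2, led by Mir217, with 0 of 3 detected. None of the lists of other tissues had a called gene, beside 2.95% of all detected genes. A count of 0 over so few genes shows nothing about them. Their part in the difference of Mir206 was not tested.

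Other miRNA genes with known roles in muscle spanned a wide range in uniquely placed reads, from 25370 CPM for Mir23a to no count in either pup for Mir489. Of a list of 30 such genes outside the myomiR families, 27 were analysed and 22 detected, and 0 were called by the exact binomial test with the ratio of 1.5, or by edgeR with a common dispersion. Beside the 2.95% called over all detected genes, 0 of 22 is not a result about this list. Without the ratio minimum, 15 of 22 had an adjusted p under 0.05 in the exact binomial test, and 15 an unadjusted one, beside 52.1% of all detected genes with an adjusted one. Their log2 ratios of pup 1 over pup 2 ran from -0.38 to 0.44 with a median of 0.04, beside -0.02 for all detected genes, with 13 of 22 higher in pup 1 by value. The highest were Mir23a at 25370 ± 1203 CPM, Mir23b at 22885 ± 900 CPM, Mir22 at 11214 ± 56.2 CPM and Mir322 at 10751 ± 675 CPM (SD, n = 2 each). Mir23a is known for restraining muscle atrophy, and Mir322 for promoting the exit of myoblasts from the cell cycle. Mir486, which is enriched in muscle and in red cells, had 5 uniquely placed counts in pup 1 and 6 in pup 2. Whether genes of this list share mature sequences was not tested. Low counts here therefore do not give the level of a miRNA that several genes encode.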

How the data were processed

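Small RNA from 2 stomachs, 1 library each, was analysed. The authors deposited raw read counts per miRNA gene, without normalization, with a count over both strands and 1 for each strand. Assembly mm10 and annotation M4 are named in the deposited description files, while the aligner and counting tool are not given in the sources. The strand column with the larger total, which held 97.7% of reads on genes in pup 1 and 97.8% in pup 2, was taken as the own strand. Rows that name no gene stayed out of totals: 8.70% of reads in pup 1 and 8.94% in pup 2 were unmapped, and 26.0% in pup 1 and 25.7% in pup 2 mapped to several places.

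Of the 1973 identifiers, 1894 matched GENCODE M21 (GRCm38, the assembly that mm10 names) without their version. Host genes are M21 genes that enclose the hairpin on its strand. Shared stretches were searched among M21 hairpins. Pups were compared by exact binomial tests against TMM effective library sizes (edgeR 4.0.16, R 4.3.3), with DESeq2 1.42.0 size factors as an alternative. The test was checked on simulated counts that held counting error only, so the check says nothing of variation among pups. A further alternative used edgeR's common dispersion, fitted with an intercept only. Intervals for levels are exact Poisson intervals, and those for shares and ratios exact binomial ones. Python 3.11.15, scipy 1.17.1, pandas 2.3.3 and matplotlib 3.10.9 were used.

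The members and lists were chosen with earlier results of these data known. Named genes are the 9 members, the 3 detected genes nearest to Mir206 and to Mir208b in pup ratio, the 4 highest genes of the other muscle-related list and the highest gene of each marker list, with Mir143. Mir145a, Mir144, Mir486, Mir489 and Mir1b fall outside it and were chosen with their values seen. Separate pups gave the libraries, yet they are littermates, so spreads are those between 2 littermates.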

Additional observations from a re-analysis of the deposited data

Results flagged for a closer look

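Reads outside the group's own counts were found on the strand of Mir1a-2, in a gene that overlaps it. Mir1b is annotated on the plus strand of chromosome 18 and overlaps the hairpin of Mir1a-2, which lies on the minus strand. Mir1b had 2 reads in pup 1 and 5 in pup 2 on the strand opposite to its own, which is the strand of Mir1a-2. These reads are too few to compare the pups, and whether they lie within the hairpin of Mir1a-2 was not tested. Over all miRNA genes 103102 reads in pup 1 and 76014 in pup 2 lay on the opposite strand. Whether the few at Mir1b are background of that kind was not tested. On its own strand Mir1b had 7 counts in pup 1 and 5 in pup 2. Crediting the opposite reads to the striated muscle genes, which was decided once the data had been seen, gave a share of 0.0279%, against 0.0278% without them.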

How the results depend on the processing

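Mir206 kept its direction and its call under all 6 alternatives run, namely total counts or DESeq2 size factors as scaling, a minimum of 30 counts or none, counts on both strands, and edgeR with a common dispersion. Its log2 ratio of pup 1 over pup 2 lay between -1.44 and -1.31, and its adjusted p between 7.0e-70 and 3.1e-05. Under each of them Mir206 was also the 1 striated muscle gene called. The number of genes called was 9 as reported, 16 when scaled by total counts and 1 with the edgeR common dispersion, where the unadjusted p of 16 genes was under 0.05. The dispersion was estimated from these 2 libraries, so this p does not measure variation among pups. The group's share moved beyond its SD when Mir206 was left out (0.00968%). With either pup left out it was 0.0183% to 0.0373%, and the log2 ratio of Mir206 over Mir208b 0.31 to 1.44. The other 2 settings of the denominator gave 0.0173% over all reads and 0.0365% without Mir143. The members whose mature miRNA no other gene encodes, 5 in number, gave 0.0278%. No paired analysis was possible because there is a single group. Depth limits Mir133b, Mir208a and Mir499, each with at most 17 counts in a pup.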
